A study of Mus musculus with 99 samples.

Results

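The Toll-like receptors are pattern-recognition receptors that bind microbial and damage-associated molecules and start an inflammatory response. Of the 35870 genes in the count table, the 10 with the symbols Tlr1, Tlr2, Tlr3, Tlr4, Tlr5, Tlr6, Tlr7, Tlr8, Tlr9 and Tlr13 were followed across 3 tissues. RNA with a poly(A) tail was sequenced in bulk from spinal cord, gastrocnemius (a calf muscle) and quadriceps (a thigh muscle) of wild-type male C57BL/6 mice perfused with saline. Within each tissue the groups were exercised at 18 months, sedentary at 18 months and sedentary at 10 months; the kind of exercise is not stated. Cord and gastrocnemius each had 13, 10 and 10 libraries in these groups, and quadriceps had 12, 9 and 10. Each library is named here by its title number, such as 3.1. Nothing in the labels says that separate numbers are separate animals, so p-values measure only the spread between these samples, which may be technical.

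Toll-like receptors fall into 2 classes by where they work. Tlr1, Tlr2, Tlr4, Tlr5 and Tlr6 sit at the cell surface: Tlr2 pairs with Tlr1 or Tlr6 to bind bacterial lipopeptides, Tlr4 binds lipopolysaccharide together with Ly96 and Cd14, and Tlr5 binds flagellin. Tlr3, Tlr7, Tlr8, Tlr9 and Tlr13 sit in endosomes and bind nucleic acids. Tlr3 binds duplex RNA, Tlr7 and, in humans, Tlr8 bind single-stranded RNA, Tlr9 binds unmethylated CpG DNA, and mouse Tlr13 binds bacterial ribosomal RNA. The endosomal receptors need the chaperone Unc93b1 and cleavage by cathepsins. All but Tlr3 signal through the adaptor Myd88, Tlr3 and Tlr4 signal through Ticam1, and the pathways end in NF-kB and interferon regulatory factors. In the nervous system microglia are the main source of most of these transcripts, while astrocytes also carry Tlr3; in muscle they are known from macrophages and, at lower level, from muscle fibres and vessel cells.

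On the mouse assembly GRCm38, Tlr1 (chr5:64924679-64933563) and Tlr6 (chr5:64952031-64960097) are neighbours on the minus strand, as are Tlr8 (chrX:167242696-167264329) and Tlr7 (chrX:167304929-167330558). Tlr13 (chrX:106143204-106160493, plus strand), Tlr2 (chr3:83836272-83841767, minus), Tlr3 (chr8:45395665-45411080, minus), Tlr4 (chr4:66827584-66930284, plus), Tlr5 (chr1:182954788-182976044, plus) and Tlr9 (chr9:106222598-106226883, plus) lie apart from the other members. Of all 50-base stretches of their transcripts, 15.4% in Tlr1 and 12.3% in Tlr6 also occur in another gene, mostly in each other, so the split of reads between this pair is less certain than for the rest. Tlr3 shares 5.3% with Gm45542, which overlaps it by 381 bases on the opposite strand. For Tlr4 the share was 0.216%, and for the other 6 members it was 0.

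RefSeq promoter entries (GRCm38.p6, 250 bases before and 50 after each start) existed for 8 of the 10 members, as 10 entries. Stretches upstream of the gene are printed 5′ to 3′ on the gene's strand for Tlr1, Tlr8, Tlr9 and Tlr13, because these 4 receptors were higher in gastrocnemius than in quadriceps at 10 months. A shorter stretch is printed for Tlr2, because it was higher in cord at 18 than at 10 months. Capitals mark letters that match a searched motif on either strand. Tlr13 is chrX:106143025-106143203 (plus strand), Tlr9 chr9:106222348-106222597 (plus), Tlr8 chrX:167264330-167264579 (minus), Tlr1 chr5:64933601-64933808 (minus) and Tlr2 chr3:83841761-83841790 (minus).
Tlr13: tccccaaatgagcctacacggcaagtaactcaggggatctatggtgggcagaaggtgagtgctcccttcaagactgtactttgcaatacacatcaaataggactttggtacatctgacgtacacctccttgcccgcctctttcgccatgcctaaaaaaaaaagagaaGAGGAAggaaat
Tlr9: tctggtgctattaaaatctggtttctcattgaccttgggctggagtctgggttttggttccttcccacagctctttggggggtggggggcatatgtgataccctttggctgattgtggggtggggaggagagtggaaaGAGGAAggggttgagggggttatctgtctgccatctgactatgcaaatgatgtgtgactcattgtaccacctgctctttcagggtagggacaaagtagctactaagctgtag
Tlr8: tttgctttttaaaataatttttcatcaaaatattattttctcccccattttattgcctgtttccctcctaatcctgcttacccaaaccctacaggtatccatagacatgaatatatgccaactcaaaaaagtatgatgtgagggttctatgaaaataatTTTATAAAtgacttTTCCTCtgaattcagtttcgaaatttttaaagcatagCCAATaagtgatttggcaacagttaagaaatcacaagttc
Tlr1: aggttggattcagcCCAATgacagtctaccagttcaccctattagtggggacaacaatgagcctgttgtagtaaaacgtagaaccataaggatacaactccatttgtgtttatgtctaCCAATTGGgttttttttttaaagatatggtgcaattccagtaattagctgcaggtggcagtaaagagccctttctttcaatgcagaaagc
Tlr2: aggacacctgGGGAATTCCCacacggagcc

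GAGGAA, the core bound by PU.1 and other ETS factors, was found in the 250 bases before a start of Tlr13, Tlr9, Tlr8 (as TTCCTC) and Tlr1, and in no entry of Tlr2, Tlr3, Tlr5 or Tlr6; Tlr4 and Tlr7 had no entry to search. In Tlr1 it was found in 1 of 2 entries, downstream of the printed stretch, at -23 from the start. This motif occurs in 23.3% of all 32851 RefSeq promoters of the same length. The NF-kB core (GGGA, 4 free bases, then CC) was found in Tlr2 (printed above as GGGAATTCCC, which matches on both strands), Tlr3 and Tlr5, against 17.6% of all promoters. The interferon-response core (GAAA, 2 free bases, then GAAA) was found in Tlr6, against 2.98% of all promoters, the CCAAT box in Tlr1, Tlr5 and Tlr8 (33.8%), and the TATA box TATAAA in Tlr6 and Tlr8 (12.4%). In Tlr8 and Tlr1 the capitals TTTATAAA and CCAATTGG each hold overlapping matches on both strands. A match describes the letters in the window and is not a measured binding site. The printed members were picked by results of these same data, and a link of any motif to their levels was not tested.

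Library totals ran from 29.06 M to 62.77 M counts (M is 1000000), with group medians of 37.32 M to 40.49 M. Tissue markers matched the labels. Median Snap25 (a neuronal synapse protein) was 2984 to 3168 TPM (transcripts per 1000000 transcripts) in the cord groups and 0.528 to 1.201 TPM in the muscle groups, and median Ckm (muscle creatine kinase) was 32.9 to 45.4 TPM in cord and 17564 to 20165 TPM in muscle. Some libraries stood apart from their tissue over all genes: cord 5.2 and 6.1 (18 months, sedentary), gastrocnemius 3.1 and 2.2 and quadriceps 3.1 (10 months, sedentary). Cord 6.1 also carried the most red cell marker RNA, 11329 CPM (counts per 1000000 counts) summed over 8 markers, against a group median of 661.0 CPM. Cord library 3.1 (10 months) was not among them, but it was the highest library of its group for 7 of the 10 members and for the summed macrophage and microglia markers, and it is named below wherever it bears on a value.

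All 10 receptors were detected in every library and passed the filter on low counts in all 3 tissues. Levels between genes are compared as TPM, which divides by transcript length. In cord, Tlr3 was the most abundant, at 13.6 ± 1.34 TPM in exercised 18-month, 11.8 ± 2.81 in sedentary 18-month and 13.1 ± 0.915 in sedentary 10-month cords (SD, n = 13, 10 and 10). Tlr3 made up 42.5%, 39.0% and 47.0% of the summed level of the 10 receptors in these groups. At 10 months its level stood at the 68.7th percentile of genes detected in cord.

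Tlr2 was next in cord, at 6.67 ± 0.801, 7.12 ± 0.947 and 4.52 ± 0.899 TPM in the same order of groups. Its libraries did not overlap with those of Tlr3 among exercised 18-month and sedentary 10-month cords, and did among sedentary 18-month cords. Tlr13, Tlr7 and Tlr9 followed with group means of 2.11 to 2.74 TPM and overlapping libraries. Tlr1 averaged 1.11 to 1.56 TPM, Tlr4 0.962 to 1.04, Tlr5 0.659 to 0.708, Tlr6 0.612 to 0.738 and Tlr8 0.303 to 0.364. From Tlr13 down, each receptor overlapped with the next in every cord group.

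The order in muscle differed from that in cord, with Tlr4, the lipopolysaccharide receptor, at the top. In gastrocnemius Tlr4 averaged 1.67 ± 0.493 TPM in exercised 18-month, 1.55 ± 0.268 in sedentary 18-month and 1.70 ± 0.797 in sedentary 10-month mice. In quadriceps the Tlr4 means were 1.29 ± 0.220, 1.34 ± 0.366 and 1.38 ± 0.678 TPM. Tlr2 came next, at 1.15 to 1.25 TPM in the gastrocnemius groups and 0.892 to 0.971 TPM in the quadriceps groups, then Tlr3 at 0.760 to 0.946 and 0.675 to 0.828 TPM. The other 7 receptors averaged 0.261 to 0.693 TPM in gastrocnemius and 0.127 to 0.527 TPM in quadriceps. In every muscle group each receptor overlapped with its neighbour in the order.

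**Figure D1:**
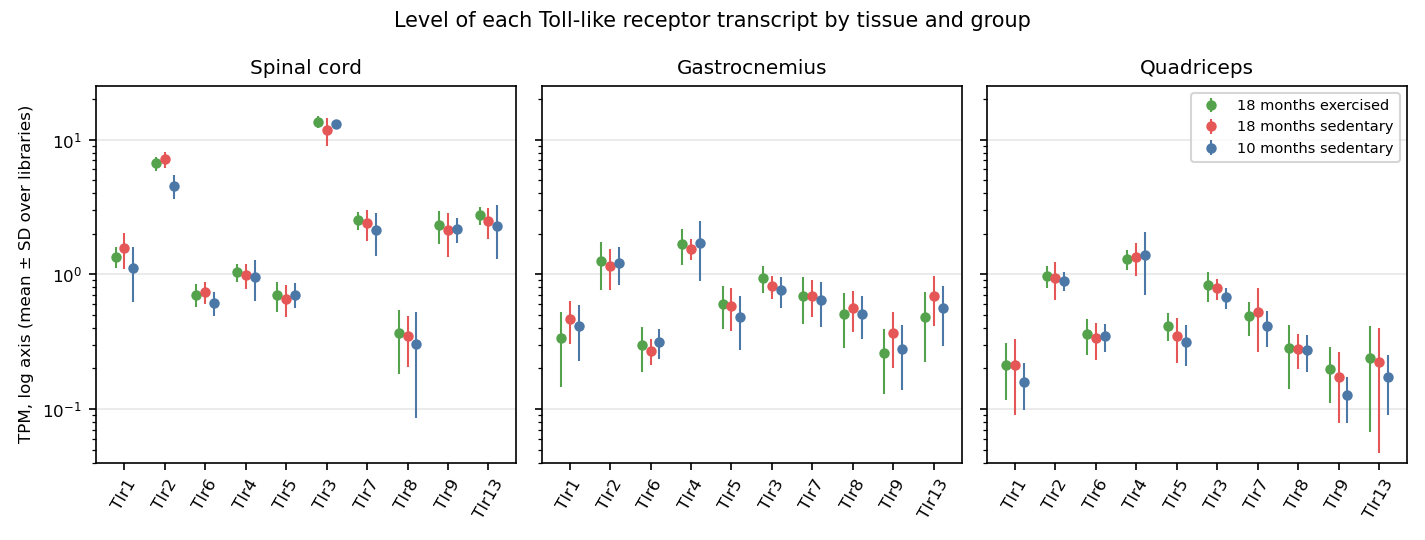
TPM of each receptor (log axis) in spinal cord, gastrocnemius and quadriceps; points are group means and bars are SD over libraries, for exercised 18-month, sedentary 18-month and sedentary 10-month mice. Tlr3 and Tlr2 stand above the others in cord, and Tlr4 and Tlr2 lead in both muscles.

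The low muscle levels rest on few counts. In quadriceps, Tlr9 had 4 to 18 counts per library in exercised 18-month mice, 4 to 24 in sedentary 18-month mice and 4 to 12 in sedentary 10-month mice. Gastrocnemius library 2.2 (10 months) held 1 count of Tlr9. In cord, Tlr3 had 527 to 1614 counts per library over all groups, so its values carry the least counting error. Tlr8 in cord had 5 to 52 counts per library.

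Ageing in cord was tested as sedentary 18-month against sedentary 10-month libraries, with values in CPM scaled within the tissue by the trimmed mean of M values (TMM). Tlr2 rose with age. It had a lowest, median and highest level of 6.68, 7.70 and 8.99 CPM in 18-month cords, against 3.805, 4.61 and 7.14 CPM in 10-month cords. All 10 of the 18-month libraries lay above the 10-month median and 6 lay above every 10-month library; the ranges overlapped through 10-month library 3.1 at 7.14 CPM, the next highest being 5.26 CPM. The log2 fold change was 0.68 ± 0.08 (SE; adjusted p = 1.55e-06, quasi-likelihood F test of edgeR with Benjamini-Hochberg adjustment over all genes tested), and 0.67 without libraries 5.2 and 6.1.

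Tlr2 was the 1 member of 10 called, where called means an adjusted p under 0.05; 5.35% of the 18956 genes tested in cord were called for ageing, 2.82% as higher and 2.53% as lower. The median log2 fold change of the 10 members was 0.17, beside 0.01 over all tested genes.

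Among the surface partners of Tlr2, Tlr1 had 1.47, 1.70 and 2.97 CPM (lowest, median, highest) in 18-month cords, against 0.769, 1.23 and 2.85 CPM in 10-month cords. All 10 of the 18-month libraries lay above the 10-month median, and the ranges overlapped widely because 10-month library 3.1 held 2.85 CPM and the next 1.72 CPM. Its log2 fold change of 0.52 ± 0.17 did not pass (adjusted p = 0.0593, edgeR). Without library 3.1 it was 0.69 with an adjusted p of 0.00323. DESeq2 (adjusted p = 0.0343) and limma with quality weights (adjusted p = 0.0036) called Tlr1 with all libraries. Tlr6, the other partner, had 0.932, 1.13 and 1.44 CPM at 18 months, against 0.651, 0.953 and 1.27 CPM at 10 months, with 8 of 10 libraries above the 10-month median. Its log2 fold change was 0.29 ± 0.12 (adjusted p = 0.129, edgeR), and limma with quality weights called it (0.39, adjusted p = 0.031).

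The other surface receptors showed smaller differences. Tlr4 had a log2 fold change of 0.07 ± 0.14 (adjusted p = 0.787), with medians of 2.85 CPM at 18 months and 2.38 CPM at 10 months. Its highest 10-month library was 3.1 at 4.86 CPM and its lowest 18-month library was 5.2 at 1.399 CPM. Tlr5 had a log2 fold change of -0.08 ± 0.14 (adjusted p = 0.745), with medians of 1.56 and 1.66 CPM at 18 and 10 months.

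By edgeR none of the endosomal receptors passed for ageing; limma with quality weights called Tlr7 (0.40, adjusted p = 0.0121) and Tlr13 (0.41, adjusted p = 0.0201). Tlr3 had 16.3, 25.5 and 32.4 CPM (lowest, median, highest) in 18-month cords, against 25.6, 27.7 and 29.6 CPM in 10-month cords. The 18-month libraries spread on both sides of the 10-month range, with 5.2 and 6.1 lowest at 16.3 and 18.3 CPM. The log2 fold change was -0.14 ± 0.08 (adjusted p = 0.264), and -0.02 without those 2 libraries.

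Tlr7 and Tlr13, which had similar levels, had log2 fold changes of 0.20 ± 0.14 and 0.14 ± 0.15, with adjusted p of 0.343 and 0.569 (edgeR). For each, 8 of 10 libraries lay above the 10-month median and none lay above 10-month library 3.1, which held 5.69 CPM of Tlr7 and 6.88 CPM of Tlr13. Tlr8 had a log2 fold change of 0.25 ± 0.31 and Tlr9 of -0.02 ± 0.17.

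**Figure D2:**
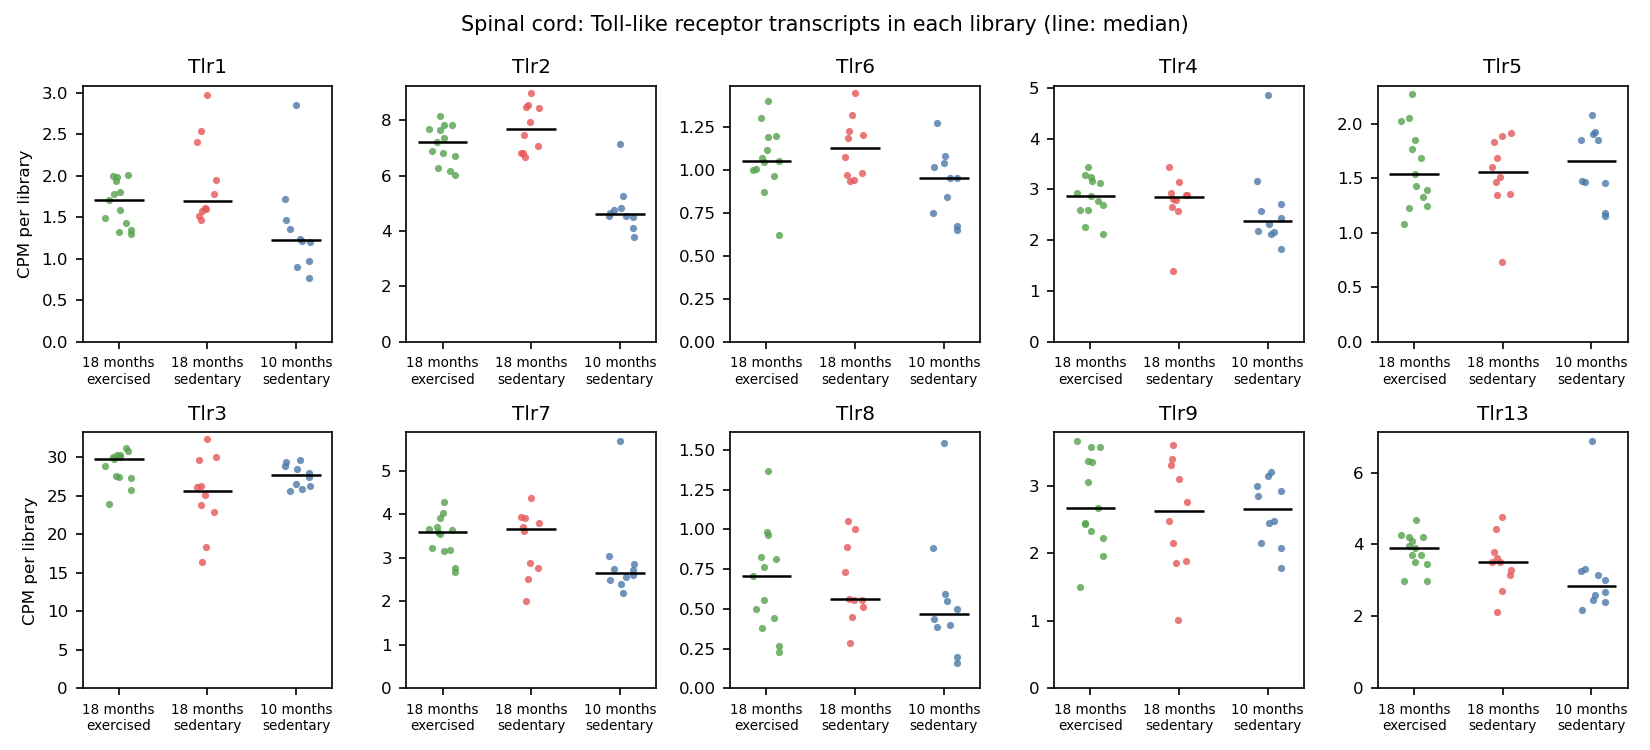
CPM of each receptor in every cord library; each point is a library and the line is the group median, for exercised 18-month, sedentary 18-month and sedentary 10-month mice. For Tlr2 the 10-month libraries sit at 3.805 to 5.26 CPM apart from library 3.1 at 7.14 CPM, and both 18-month groups sit at 6.01 CPM or above.

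Exercised 18-month cords were also set against the 10-month sedentary cords. This comparison shares the 10-month libraries with the ageing comparison, and age and exercise change together in it. The same holds for the matching comparisons within each muscle. Tlr2 was the 1 member of 10 called, against 1.51% of all tested genes called, 0.981% as higher and 0.528% as lower. Tlr2 had 6.01, 7.23 and 8.15 CPM (lowest, median, highest) in exercised 18-month cords, against the 10-month values above. All 13 exercised libraries lay above the 10-month median and 7 lay above every 10-month library. The log2 fold change was 0.57 ± 0.08 (adjusted p = 2.51e-05, edgeR). Tlr7 and Tlr13 had log2 fold changes of 0.26 ± 0.13 and 0.27 ± 0.14 with adjusted p of 0.393 and 0.426. Without 10-month library 3.1 these were 0.42 and 0.46, with adjusted p of 0.0287 and 0.0133.

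Exercise itself, tested as exercised against sedentary cords at 18 months, gave no called member by edgeR, DESeq2 or limma, and 0% of all 18956 tested genes were called by edgeR. This comparison shares the sedentary 18-month libraries with the ageing comparison. At an unadjusted p under 0.05, edgeR passed 1 member, Tlr3, and 2565 genes in all. Tlr3 had 23.9, 29.8 and 31.2 CPM (lowest, median, highest) in exercised cords, against 16.3, 25.5 and 32.4 CPM in sedentary cords. The exercised range lay within the sedentary range, with 12 of 13 exercised libraries above the sedentary median. On the log2 scale Tlr3 differed by 0.19 ± 0.07 (adjusted p = 0.368), and by 0.09 without sedentary libraries 5.2 and 6.1.

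Tlr2 had a log2 fold change of -0.12 ± 0.08 for exercise (adjusted p = 0.436), with 10 of 13 exercised libraries below the sedentary median. The approximate 95% intervals of the 10 members for exercise in cord ran from -0.54 to 0.58, both ends belonging to Tlr8.

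The members' pathway was read in cord from lists by role, which were chosen with earlier results of these data known. Among co-receptors and binding partners, 2 of 9 rose with age and none fell: Cd180, which binds Ly86 and modulates responses to lipopolysaccharide (log2 fold change 0.51 ± 0.13, adjusted p = 0.0215), and Itgb2, an integrin chain of leukocytes (0.53 ± 0.14, adjusted p = 0.0219). Among trafficking and folding genes 3 of 9 rose, namely Unc93b1 (0.35 ± 0.07), Ctss (0.41 ± 0.09) and Ctsb (0.14 ± 0.04), the last 2 being cathepsins. Of 6 adaptors, Ticam2, which links Tlr4 to Ticam1, rose (0.57 ± 0.15), and of 16 kinases and ubiquitin ligases Tab1 rose (0.19 ± 0.05).

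Of 11 transcription factors 5 rose with age in cord, with the smallest p for Irf8 (0.52 ± 0.09), Relb (0.39 ± 0.08) and Irf5 (0.41 ± 0.10), which drive myeloid, non-canonical NF-kB and inflammatory programmes. Of 14 negative regulators Lilrb4a, an inhibitory receptor of myeloid cells, rose (1.09 ± 0.18). Of 19 cytokines and other induced targets 13 were tested and 6 rose, led by the chemokines Ccl3 (1.91 ± 0.16, adjusted p = 8.17e-10), Ccl4 (1.51 ± 0.18) and Cxcl10 (1.397 ± 0.24). In none of these lists did a gene fall. Under exercise at 18 months 0 members of any of these lists were called in cord by edgeR.

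Some cell markers also rose with age in cord. Of 13 macrophage and microglia markers 10 rose with age, with Cd68 (a lysosomal protein of phagocytes) at 0.89 ± 0.10, Tyrobp (a myeloid adaptor) at 0.68 ± 0.09 and C1qa (complement) at 0.71 ± 0.11. Their summed level was 444.4 to 544.4 CPM in exercised 18-month, 486.8 to 615.6 in sedentary 18-month and 350.0 to 714.9 in sedentary 10-month cords, the last maximum being library 3.1, and none of the 13 had a median of 0. Of 8 homeostatic microglia markers, such as P2ry12 and Tmem119, 0 were called for ageing; P2ry12 was at -0.20 ± 0.07 (adjusted p = 0.0782), and the summed level was 225.5 to 251.5, 200.9 to 252.3 and 208.7 to 290.1 CPM in the same order of groups. Of 7 border macrophage and 11 monocyte and neutrophil markers 0 were called by edgeR. Of 6 dendritic cell markers tested 1 rose (Itgax, 1.81 ± 0.21), of 7 B and plasma cell markers 1 rose (Cd22, 1.03 ± 0.17), of 7 T and NK cell markers tested 2 rose (Cd8a, 1.60 ± 0.34, and Cd8b1, 1.201 ± 0.34), and none of these fell. The part of the cell markers in the Tlr2 result was not tested, and in bulk tissue more cells of a type and more RNA per cell cannot be told apart.

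In gastrocnemius no member was called for ageing by edgeR, DESeq2 or limma, where 0.153% of 15027 tested genes were called (0.113% higher, 0.0399% lower), and none reached an unadjusted p under 0.05. Log2 fold changes ran from -0.22 (Tlr6) to 0.37 (Tlr9), with a median of 0.11 beside -0.02 over all tested genes. Tlr2 had 0.915, 1.58 and 2.25 CPM (lowest, median, highest) in sedentary 18-month gastrocnemius, against 1.04, 1.61 and 2.26 CPM at 10 months, and the ranges overlapped almost wholly. Its log2 fold change was -0.08 ± 0.19.

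For exercise in gastrocnemius 0 of 10 members were called by edgeR, DESeq2 or limma, beside 0.106% of all tested genes (0.0732% higher, 0.0333% lower), and Tlr13 alone reached an unadjusted p under 0.05. Tlr13 had 0.427, 0.710 and 2.03 CPM (lowest, median, highest) in exercised mice, against 0.534, 1.13 and 1.87 CPM in sedentary 18-month mice. Of the 13 exercised libraries 11 lay below the sedentary median, while library 7.3 was above every sedentary library. Its log2 fold change was -0.53 ± 0.24 (adjusted p = 0.333). Tlr1 (-0.47 ± 0.26) and Tlr9 (-0.47 ± 0.27) had adjusted p of 0.430 and 0.441. Library 7.3 was the highest exercised gastrocnemius library for 8 of the 10 members and for the summed macrophage markers, at 172.1 CPM against a group median of 97.9 CPM.

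In exercised 18-month against sedentary 10-month gastrocnemius 0 members were called by edgeR, DESeq2 or limma, although 6.73% of all tested genes were, 3.43% as higher and 3.3% as lower. Tlr3 had the smallest p, with 1.86, 2.28 and 3.66 CPM (lowest, median, highest) in exercised mice, against 1.44, 1.99 and 2.77 CPM at 10 months. Of 13 exercised libraries 11 lay above the 10-month median, with overlapping ranges. The log2 fold change was 0.32 ± 0.12 (adjusted p = 0.0938).

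In quadriceps 0 members were called by edgeR, DESeq2 or limma for ageing, beside 0.352% of 14790 tested genes (0.243% higher, 0.108% lower), or for exercise, beside 0.757% (0.595% higher, 0.162% lower), and none reached an unadjusted p under 0.05 in either. Ageing differences ran from -0.09 (Tlr6) to 0.40 (Tlr9) and exercise differences from -0.03 (Tlr7) to 0.35 (Tlr5) on the log2 scale. In exercised quadriceps all 12 libraries of Tlr5 lay above the sedentary 18-month median, and the Tlr5 log2 fold change was 0.35 ± 0.18 (adjusted p = 0.482).

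In exercised 18-month against sedentary 10-month quadriceps, Tlr3 was the 1 member called, against 11.1% of all tested genes called, 5.76% as higher and 5.38% as lower, so the members' count did not stand above the background. Tlr3 had 1.83, 2.26 and 3.21 CPM (lowest, median, highest) in exercised 18-month mice, against 1.43, 1.88 and 2.28 CPM in sedentary 10-month mice. Of 12 exercised libraries 11 lay above the 10-month median and 6 above every 10-month library. The log2 fold change was 0.32 ± 0.10 (adjusted p = 0.0272, edgeR). The call was lost without exercised library 7.1 (0.30, adjusted p = 0.0520) and with no filter on low counts (adjusted p = 0.0659). It was also lost with limma (adjusted p = 0.0537) and with only the 2 groups compared (adjusted p = 0.0542), while DESeq2 called 1 member. Tlr9 (0.63 ± 0.26) and Tlr5 (0.43 ± 0.18) had adjusted p of 0.102 and 0.108. Without 10-month library 2.3, Tlr5 was at 0.56 with an adjusted p of 0.0368.

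**Figure D3:**
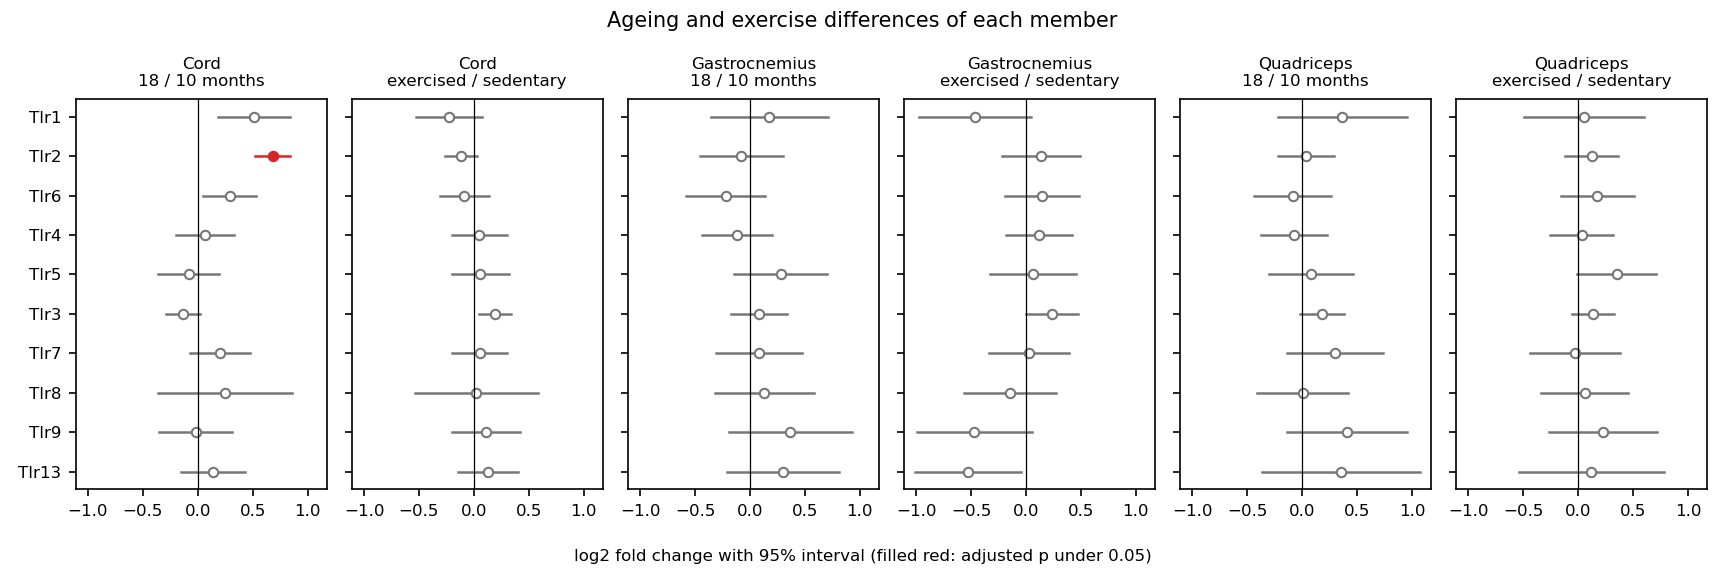
Log2 fold changes of the 10 receptors with approximate 95% intervals for ageing (sedentary, 18 over 10 months) and exercise (18 months, exercised over sedentary) in each tissue. The filled point has an adjusted p under 0.05. Tlr2 in ageing cord, at 0.68, is the only filled point of 60.

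Pathway genes in quadriceps moved in both directions in that comparison of exercised 18-month with sedentary 10-month mice. Among 9 trafficking genes Lgmn, a lysosomal protease, and Ctss rose while Slc15a4, an endosomal transporter, fell; among 11 transcription factors Irf7 and Irf1 rose and Rel fell. Of 13 macrophage markers 0 were called there by edgeR.

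Whether ageing acted differently on Tlr2 in cord than in muscle was tested as a difference of log2 fold changes in a fit over all libraries. The ageing difference of Tlr2 in cord exceeded the mean of both muscles by 0.69 ± 0.17 (adjusted p = 0.0120, edgeR), against its own values of -0.08 ± 0.19 in gastrocnemius and 0.03 ± 0.13 in quadriceps. Tlr2 was the 1 member of 10 called, while 2.61% of 19735 tested genes were called, 1.08% (213) as higher and 1.54% (303) as lower. With library totals in place of TMM scaling the split over all genes was 318 higher and 111 lower, and the direction and call of Tlr2 held. In the same test 5 of 13 macrophage markers were called, Cd68 having the smallest p (0.91 ± 0.18), and Ccl3, Cxcl10, Relb, Irf8 and Itgax were called as well.

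For exercise no member differed between cord and the muscles by edgeR, DESeq2 or limma, beside 0.887% of all tested genes (0.284% higher, 0.603% lower), and none of the members reached an unadjusted p under 0.05. The calls over all genes were 56 higher and 119 lower with TMM scaling, and 17 and 111 with library totals.

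Cord and muscle were compared directly at 10 months. All 10 members were called, 6 as higher and 4 as lower, and so were 92.1% of the 19735 genes tested (53.9% higher, 38.2% lower), so the calls do not set the members apart. Under TMM scaling over both tissues the median of all genes lay at 0.40 and the calls split into 10644 higher and 7529 lower; with library totals these were 1.54, 15052 and 3524. Tlr3 (2.68 ± 0.08) and Tlr9 (1.99 ± 0.19) lay well above the median of all genes, Tlr13 at 1.35 ± 0.20 above it, and Tlr2 (0.60), Tlr1 (0.58) and Tlr7 (0.50) close to it. Tlr4 (-2.17 ± 0.15) and Tlr8 (-1.83 ± 0.23) lay below, and their sizes depended on the processing. Over the alternatives Tlr4 ran from -2.20 to -1.04 and Tlr8 from -2.14 to -0.69. With CPM scaled within each tissue, mean Tlr8 in cord was 0.469 of that in gastrocnemius and 0.843 of that in quadriceps. Its cord libraries overlapped with those of both muscles. Tlr5 (-0.66) and Tlr6 (-0.62) were lower under TMM scaling and higher with library totals (0.48 and 0.52), so no direction is given for them.

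The CPM values of the tissues, each scaled within its own tissue, give the same direction for Tlr3 and Tlr4. On that scale mean Tlr2 in cord was 2.98 and 3.82 times that in gastrocnemius and quadriceps. In the same order mean Tlr7 was 2.60 and 3.84 times, and mean Tlr1 2.13 and 5.28 times. Mean Tlr5 in cord was 1.18 and 1.68 times that in gastrocnemius and quadriceps, and mean Tlr6 1.54 and 1.34 times. Sizes, and for Tlr5 and Tlr6 directions, thus depend on the scaling. Tlr3 had 25.6, 27.7 and 29.6 CPM in 10-month cords, against 1.44, 1.99 and 2.77 CPM in gastrocnemius and 1.43, 1.88 and 2.28 CPM in quadriceps. Tlr4 had 1.83, 2.38 and 4.86 CPM in cord, against 2.70, 5.36 and 11.7 CPM in gastrocnemius and 3.59, 4.29 and 10.397 CPM in quadriceps. The high ends of Tlr4 in both muscles were library 3.1, which also held the most monocyte and neutrophil marker RNA there (20.3 CPM in gastrocnemius against a median of 8.58, 31.0 CPM in quadriceps against 4.31, summed over 11 markers, of which Ly6g was at a median of 0 in both muscles).

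The muscles differed from each other at 10 months. Tlr13, Tlr1, Tlr8 and Tlr9 were higher in gastrocnemius than in quadriceps, 4 of 10 members, while 10.9% of 15433 tested genes were called, 6.76% as higher and 4.17% as lower. Tlr13 had 0.444, 0.974 and 1.87 CPM (lowest, median, highest) in gastrocnemius, against 0.130, 0.312 and 0.534 CPM in quadriceps. All 10 gastrocnemius libraries lay above the quadriceps median and 8 above every quadriceps library. Gastrocnemius over quadriceps, the log2 fold change of Tlr13 was 1.57 ± 0.32 (adjusted p = 0.000412, edgeR).

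Tlr1 had 0.329, 0.621 and 1.21 CPM in gastrocnemius, against 0.117, 0.241 and 0.409 CPM in quadriceps, with 7 of 10 gastrocnemius libraries above every quadriceps library (log2 fold change 1.22 ± 0.30, adjusted p = 0.00334). Tlr8 had 0.517, 1.29 and 1.66 CPM in gastrocnemius, against 0.455, 0.620 and 1.14 CPM in quadriceps, with 6 of 10 above every quadriceps library (0.78 ± 0.23, adjusted p = 0.0159). Tlr9 had 0.0370, 0.408 and 0.747 CPM in gastrocnemius, against 0.0937, 0.187 and 0.327 CPM in quadriceps (0.99 ± 0.30, adjusted p = 0.0212). For Tlr9, 8 of 10 gastrocnemius libraries lay above every quadriceps library and library 2.2, with its 1 count, lay below all of them.

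The remaining members did not pass between the muscles at 10 months in the main edgeR fit, which did not pair libraries by title number. Tlr7 (0.51 ± 0.22) and Tlr5 (0.46 ± 0.21) had adjusted p of 0.123 and 0.163, and Tlr2 was at 0.30 ± 0.17 (adjusted p = 0.266). With the title number as a block in edgeR, Tlr7 passed (0.50, adjusted p = 0.0456), and limma with quality weights called Tlr4, Tlr5 and Tlr7 as well. Tlr4 (0.17 ± 0.16), Tlr3 (0.05 ± 0.12) and Tlr6 (-0.27 ± 0.18) had adjusted p of 0.568, 0.858 and 0.371. With library totals in place of TMM scaling the calls over all genes were 1217 higher and 387 lower, beside 1043 and 644 with TMM scaling, and the same 4 members were called.

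The contrast was repeated at 18 months in both groups, a choice made after the 10-month result was seen. In sedentary 18-month mice 5 of 10 members were higher in gastrocnemius, against 13.1% of all tested genes called, 6.97% as higher and 6.09% as lower: Tlr13 (1.502 ± 0.32), Tlr1 (1.02 ± 0.29), Tlr9 (0.95 ± 0.29), Tlr8 (0.90 ± 0.23) and Tlr5 (0.65 ± 0.21). The call of Tlr5 was lost with no filter on low counts (0.65, adjusted p = 0.0545). In exercised 18-month mice 3 were called, against 18.5% of all tested genes, 9.6% as higher and 8.85% as lower. Tlr13 (0.85 ± 0.28, adjusted p = 0.0247) and Tlr8 (0.69 ± 0.20, adjusted p = 0.0114) were higher in gastrocnemius, and Tlr6 (-0.44 ± 0.16, adjusted p = 0.0413) was lower. The calls over all genes there were 1482 higher and 1366 lower with TMM scaling and 2493 and 461 with library totals, under which Tlr6 did not pass (-0.34, adjusted p = 0.141); nor did it with no filter on low counts (-0.44, adjusted p = 0.0840).

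**Figure D4:**
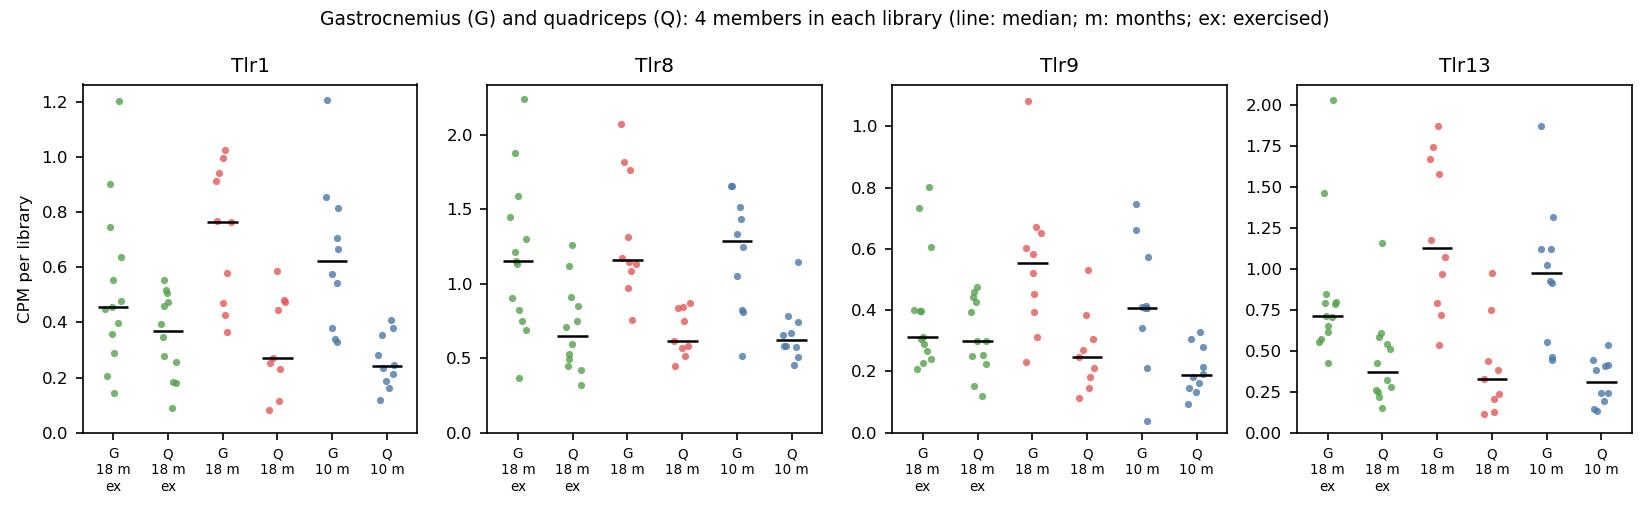
CPM of Tlr1, Tlr8, Tlr9 and Tlr13 in every library of gastrocnemius (G) and quadriceps (Q) in exercised 18-month, sedentary 18-month and sedentary 10-month mice; points are libraries and lines are medians. Tlr13 has medians of 0.710, 1.13 and 0.974 CPM in gastrocnemius, against 0.372, 0.329 and 0.312 CPM in quadriceps.

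Neither the ageing nor the exercise difference of any member was shown to differ between gastrocnemius and quadriceps by edgeR, DESeq2 or limma, and 0% of all tested genes were called in either test by edgeR (232 and 357 genes at an unadjusted p under 0.05, with 0 members among them). The intervals were wide and came from fits that did not pair libraries by title number. Over the 10 members they ran from -1.02 to 0.80 for ageing and from -1.48 to 0.61 for exercise on the log2 scale. With the title number as a block 0 genes were called in either test as well. The largest exercise differences between the muscles were those of Tlr9 (-0.70 ± 0.38) and Tlr13 (-0.65 ± 0.42).

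Some pathway genes and cell markers also differed between the muscles at 10 months, the markers in both directions. Of 9 co-receptors 4 were higher in gastrocnemius, with Ly86 (0.94 ± 0.22), Itgam (0.87 ± 0.21) and Cd180 (1.15 ± 0.29) having the smallest p, and of 9 trafficking genes Ctss (1.79 ± 0.25) and Lgmn (0.42 ± 0.08) were. Of 13 macrophage markers 6 were higher, among them Cx3cr1 (1.39 ± 0.23) and Cd68 (1.06 ± 0.17), and their summed level was 63.2 to 138.1 CPM in gastrocnemius and 53.3 to 114.6 CPM in quadriceps. Of 11 monocyte and neutrophil markers 6 were tested and 1 was higher (Ccr2, 1.32 ± 0.24), and of 7 border and resident macrophage markers 1 was lower (Lyve1, -0.51 ± 0.17). Of 7 dendritic cell markers 1 was higher (Itgax, 1.32 ± 0.30) and 1 lower (Cd209a, -0.54 ± 0.19). Of 9 T and NK cell markers Cd3e alone had enough counts to be tested, and it was lower (-1.92 ± 0.32). Of 11 transcription factors 0 were called by edgeR; Rel was at 0.49 ± 0.18 (adjusted p = 0.0588) and Spi1, which encodes PU.1, at 0.47 ± 0.18 (adjusted p = 0.0694). The homeostatic microglia and B cell lists held 0 genes called by edgeR there. The part of the cell markers in the receptor differences was not tested.

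How the receptors varied among libraries of the same group was described by Pearson's r of deviations from the group mean, on log2 CPM, with no test. Such correlations share the library, its depth and its dissection. Between pairs of members, r ranged from 0.039 to 0.846 over 33 cord libraries (median 0.401), from 0.025 to 0.737 over 33 gastrocnemius libraries (median 0.447) and from -0.330 to 0.667 over 31 quadriceps libraries (median 0.176). The highest pair in cord was Tlr7 with Tlr13 (0.846), and in gastrocnemius Tlr1 with Tlr13 (0.737). Cord library 3.1 was the highest 10-month library for both Tlr7 and Tlr13, and its part in their r was not tested.

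The genes that varied most like each member in cord differed by receptor. Tlr2 varied most like C4b (0.787), Cd68 and Tmem106a (both 0.754). Tlr3 varied most like Ppp2r3a (0.950), Hif1a (0.939) and Aqp4, the astrocyte water channel (0.932). Its r with the summed astrocyte markers was 0.761, against -0.275 with the summed macrophage and microglia markers. Cord libraries 5.2 and 6.1, which stood apart over all genes, were the lowest for Tlr3 and for Aqp4 (272 and 336 CPM). Their part in these r values was not tested. Tlr13 varied most like Ptprc, the leukocyte antigen CD45 (0.881), and Mpeg1, a macrophage perforin (0.872), and Tlr7 like Tlr13. Library 3.1 was the highest 10-month cord library for Tlr13, Tlr7 and Ptprc (21.3 CPM). The part of library 3.1 in these r values was not tested.

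Tlr8 in cord varied most like F13a1, a marker of border macrophages (0.908), and its r with the summed border macrophage markers was 0.860. Library 3.1 was the highest 10-month cord library for Tlr8 and for these summed markers, and its part in the r values was not tested. Tlr4 varied most like Gimap8 (0.872), Tlr1 like Fcgr2b (0.797), Tlr6 like Trim21 (0.708), Tlr5 like Abcc1 (0.783) and Tlr9 like Med12 (0.938). In gastrocnemius Tlr13 varied most like Cd53 (0.901), Tlr8 like Inpp5d (0.907), Tlr1 like Ccr2 (0.822), Tlr9 like Cd33 (0.813), Tlr7 and Tlr2 like Adgre1 (0.787 and 0.718) and Tlr6 like Inpp5d (0.635), all genes of leukocytes. Tlr3, Tlr4 and Tlr5 in gastrocnemius varied most like Ddx58, a cytosolic RNA sensor (0.804), Mtpn (0.887) and Raph1 (0.826). Gastrocnemius library 3.1, which stood apart over all genes, held the highest 10-month Tlr4 (11.7 CPM). Its part in the Tlr4 value was not tested.

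In quadriceps the highest values were those of Tlr4 with Fgl2 (0.879), Tlr7 with the macrophage gene Pf4 (0.815) and Tlr8 with Arhgap30 (0.806). Quadriceps library 3.1, which stood apart over all genes, held the highest 10-month Tlr4 (10.397 CPM). Its part in the Tlr4 value was not tested. Tlr3 there was most like Spry1 (0.770), Tlr9 like Il10ra (0.765), Tlr13 like Ccr2 (0.737), Tlr5 like Tmem43 (0.717), Tlr6 like Fndc4 (0.709), Tlr1 like Tmem176a (0.672) and Tlr2 like Pik3ap1 (0.648).

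**Figure D5:**
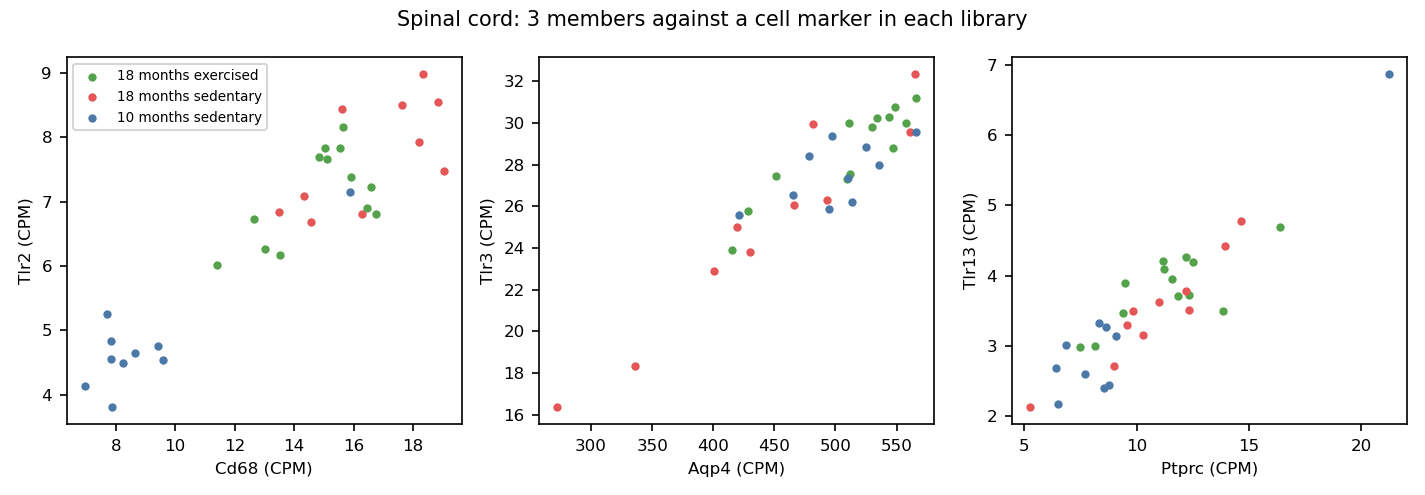
CPM of Tlr2 against Cd68, Tlr3 against Aqp4 and Tlr13 against Ptprc in each cord library, coloured by group. Tlr2 and Cd68 are both lower in the 10-month libraries except library 3.1. The lowest Tlr3 and Aqp4 values are those of 18-month sedentary libraries 5.2 and 6.1, which stood apart over all genes. The highest Tlr13 and Ptprc values are those of 10-month library 3.1.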

How the data were processed

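The authors deposited gene counts, TPM and FPKM for 97 of 99 labelled libraries; 2 quadriceps libraries were not analysed here. The submitters' processing notes name STAR 2.5.2b and the build GRCm38.p5 for the poly(A) libraries. No counting program or strand setting is named. TPM and FPKM, both deposited, were recomputed from the deposited counts within 0.0005, and FPKM was not used further. The 49 genes with an ID but no symbol stayed in the fits and are not named. No 2 libraries of a group agreed within sampling noise (lowest chi-square per gene 3.23, over genes with at least 20 counts).

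The main test on counts was edgeR's quasi-likelihood F test (version 4.0.16, R 4.3.3), with all 3 groups of a tissue in 1 fit, TMM scaling, a filter (filterByExpr, minimum count 10, minimum total 15) and Benjamini-Hochberg adjustment over all tested genes; calls are at an adjusted p under 0.05. Contrasts between tissues came from 1 fit over the libraries of those tissues, with joint TMM factors. CPM values use factors from within each tissue. The test was checked on simulated counts.

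Alternatives were DESeq2 1.42.0, its size factors in edgeR, no filter, limma 3.58.1 with quality weights, leaving out libraries that stood apart, fitting only the 2 groups compared, a gene length slope, leaving out each library in turn (within tissues) and, between tissues, a replicate block. Library totals without TMM and the 18-month muscle contrasts were added after seeing the data.

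The members and lists were chosen with earlier results of these data known. All 10 members are named. Of the lists described for a comparison the text gives counts and at most 3 called genes with the smallest p, or up to 2 genes where none was called. The genes most like a member are the 3 with the highest Pearson's r, of which the first is always printed. Depth limits precision mainly in muscle, where several members had under 20 counts in a library, and for Tlr8 in cord.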

Additional observations from a re-analysis of the deposited data

Results flagged for a closer look

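A library was singled out where its distance to the next library, divided by the range of its group, passed the 95% limit of Dixon's test. Of 60 sets of member values examined, 12 passed; chance passes about 1 in 20. Exercised groups hold more than 10 libraries and were not examined.

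In 10-month cord, library 3.1 was the highest for 6 of these: Tlr1 at 2.845 CPM (next 1.715), Tlr2 at 7.143 CPM (next 5.26), Tlr4 at 4.861 CPM (next 3.162), Tlr7 at 5.691 CPM (next 3.028), Tlr8 at 1.541 CPM (next 0.8844) and Tlr13 at 6.877 CPM (next 3.321). The same library held the highest summed macrophage and microglia markers (714.9 CPM against a group median of 373.7 CPM), homeostatic microglia markers (290.1 against 217.7 CPM) and border macrophage markers (35.8 against 20.8 CPM). Their part in the receptor values was not tested. The ageing difference of Tlr2 in cord was 0.75 without this library.

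Tlr4 was highest in the 10-month libraries numbered 3.1 of both muscles, at 11.74 CPM in gastrocnemius (next 6.767) and at 10.397 CPM in quadriceps (next 5.155). In sedentary 18-month cord, Tlr4 was lowest in library 5.2 at 1.399 CPM (next lowest 2.573) and Tlr5 in library 6.1 at 0.7303 CPM (next lowest 1.346). Tlr8 was highest in 10-month quadriceps library 1.4 at 1.143 CPM (next 0.7811), and Tlr9 in sedentary 18-month gastrocnemius library 6.1 at 1.084 CPM (next 0.6715).

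The ageing difference of Tlr2 was larger in cord than in the muscles by 0.689 on the log2 scale, the 1 member for which the test of the difference between tissues passed (adjusted p = 0.0120, edgeR). Its own log2 fold changes were 0.68 in cord, -0.08 in gastrocnemius and 0.03 in quadriceps.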

How the results depend on the processing

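Among the results for single members under alternatives, 4069 of 4099 were counted as unchanged, 21 gained a call, 7 lost it and 2 reversed. Of the 4099, 3799 had no call in either fit and were counted as unchanged, although 153 of these differed in sign. Most of the unchanged results thus had no call to lose. Tlr2 in ageing cord was called under all alternatives run, with log2 fold changes of 0.64 to 0.75 over the 33 fits that left out 1 library. The reversals were Tlr5 (0.4842) and Tlr6 (0.5184) in cord against the muscles with library totals in place of TMM.

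Members called for ageing in cord (1) were 2 with DESeq2, 5 with limma and quality weights (adding Tlr1, Tlr6, Tlr7 and Tlr13), 2 with a gene length slope and 1 to 2 when a library was left out; the second was Tlr1, without 10-month library 3.1 or 18-month library 7.4 (0.55, adjusted p = 0.0383). In exercised 18-month against 10-month cord (1) they were 4 with limma and 1 to 3 when a library was left out, 3 without library 3.1. In exercised 18-month against 10-month quadriceps (1) they were 0 with no filter, with limma and with only the 2 groups compared, and 0 to 2 when a library was left out. For the ageing difference between cord and muscles (1) they were 2 with limma, adding Tlr6, and 2 with the replicate block, adding Tlr3 (-0.33, adjusted p = 0.0421). For gastrocnemius against quadriceps at 10 months (4) they were 7 with limma, adding Tlr4, Tlr5 and Tlr7.

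The labels do not say that an equal title number in different tissues is 1 animal, so the main fits did not pair libraries. Deviations of same-numbered libraries correlated over 0.1 in 28 of 31 gastrocnemius and quadriceps numbers (median r 0.272), 23 of which matched their own number best. For cord with gastrocnemius and cord with quadriceps this held in 13 of 33 and 10 of 31 numbers. Libraries of a number thus tended to deviate together between the muscles, which the main muscle p-values and intervals do not use. The replicate block added Tlr7 (0.50, adjusted p = 0.0456) between the muscles at 10 months.

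Counts over all genes moved more. For ageing in cord 1015 genes were called, against 1612 with DESeq2, 540 with no filter, 2260 with limma, 454 without the libraries that stood apart, 252 with only the 2 groups compared and 407 to 1892 when a library was left out. In exercised 18-month against 10-month cord 286 were called, against 499, 2654 (DESeq2, limma), 689 (libraries that stood apart left out), 1281 (length slope), 644 (only the 2 groups) and 161 to 534 (a library left out). In gastrocnemius 23 (ageing) and 16 (exercise) were called, with ranges over alternatives of 3 to 481 and 3 to 1067, and 1011 for exercised 18 against 10 months, with 371 to 1865. In quadriceps 52 and 112 were called for ageing and exercise, with 17 to 833 and 60 to 634, and 1647 for exercised 18 against 10 months, with 1085 to 2531. The ageing difference between cord and muscles gave 516 (252 to 2022; 1490 with the replicate block) and the exercise difference 175 (90 to 1443; 867 with the block). Gastrocnemius against quadriceps gave 1687 at 10 months (5773 with limma; 3886 without the libraries that stood apart; 3711 with the block), 2016 in sedentary 18-month mice (4201 with limma; 3807 with the block) and 2848 in exercised 18-month mice (4665 with limma; 5892 with the block).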
